A study of Homo sapiens with 15 samples.

Results

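Unexposed BEAS-2B cultures were compared at 2 late times: 3 negative control libraries at 30 weeks against 2 negative control libraries at 15 weeks, 5 of the 15 libraries of the series. The members were taken from the labels alone, with no use of measured values. BEAS-2B is an immortalised human bronchial epithelial line, so all values describe 1 line. The series followed cultures given polyethylene terephthalate nanoplastics (PET-NPLs) at 50 µg/mL, with unexposed cultures beside them, at 24 h, 15 weeks and 30 weeks. RNA was sequenced after depletion of ribosomal RNA. The controls received no PET-NPLs, and their exposed counterparts, 2 libraries at 15 weeks and 4 at 30 weeks, serve here as a second series over the same interval. The labels do not say whether libraries of 1 group came from separate cultures, so each p-value measures only the spread between these libraries, which may be technical. All 30-week libraries belong to batch 2 in the labels and all earlier ones to batch 1, so time in culture and batch cannot be told apart in any change from 15 to 30 weeks.

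Bronchial epithelial cells are held together by desmosomes and tight junctions, anchor a keratin network to them, and rest on a basement membrane of laminins and type IV collagen. Skeletal muscle identity is set by a small family of transcription factors led by MYOD1, which with partners such as MEF2C switch on the genes of the sarcomere and of the acetylcholine receptor at the nerve-muscle contact. SNAI2 and TWIST1 are transcription factors known to lower junction genes and to act in mesenchymal precursors, muscle precursors among them.

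The libraries held between 28600021 and 31459990 counts. Checked against epithelial markers, the line held simple keratins and junction genes but not the epithelial cadherin. KRT8, a keratin of simple epithelia, measured 521 and 569 CPM at 15 weeks and 187, 136 and 127 CPM at 30 weeks. CDH1, the epithelial cadherin, was below 1 CPM in all 5 libraries, and of 14 markers of differentiated airway cells with a row of counts 5 passed the filter on low counts and none was called. SFTPA1, a surfactant gene, had 0 counts in all 5. Of the other markers, 1 of 5 tested endothelial genes was called higher, and the summed endothelial list ran from 1.8 to 2.31 CPM at 15 weeks and from 3.47 to 5.29 CPM at 30 weeks. EMCN and SOX18, endothelial markers, and CD3E, CD3D and MS4A1, lymphocyte markers, had 0 counts in every one of the 5. The summed immune list ran from 13.9 to 15.1 and from 26.7 to 33.1 CPM, led by CD68. The summed neural list ran from 6.48 to 7.67 and from 2.54 to 4.8 CPM. The fibroblast list had 3 of 10 tested members called higher and 3 lower, and its sum ran from 310.2 to 315.2 CPM at 15 weeks and from 488.5 to 614.6 CPM at 30 weeks. THY1, a surface protein of mesenchymal cells, made most of that sum. Values in counts per 1000000 (CPM) use library sizes scaled by the trimmed mean of M values (TMM), and a log2 fold change (log2FC) is the fitted 30-week over 15-week ratio ± its standard error. Adjusted p-values are from edgeR's quasi-likelihood test with Benjamini-Hochberg adjustment over 16740 genes, with a threshold of 0.05. These are bulk libraries, in which fewer cells of a type and less RNA per cell cannot be told apart.

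The late controls differed from the intermediate ones across the transcriptome. Of the genes tested 50.3% were called, 4293 (25.6%) higher and 4126 (24.6%) lower at 30 weeks. With at least a 2-fold change as a further condition, 2219 (13.3%) were higher and 1775 (10.6%) lower, and 625 genes were called with a 4-fold or larger rise against 312 with such a fall. The median log2FC was 0.01, and the 5th and 95th percentiles were -1.44 and 1.79. When libraries were scaled by their size alone, the median of all genes moved to -0.37, and of the called genes 26.4% were higher in place of 51%. The exposed libraries, over the same interval and batches and with no library in common, gave 46% of genes called, and 5959 genes were called in both, which is 70.8% of the control calls and 77.4% of the exposed calls. A change of batch would enter both. No called gene named below had overlapping groups, beside 68.1% of all genes without overlap, 34% higher and 34.1% lower. The difference between the control and the exposed change, in which a shift common to both cancels, was called for 794 genes (4.74%), higher in controls for 349 (2.08%) and lower for 445 (2.66%).

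**Figure D1:**
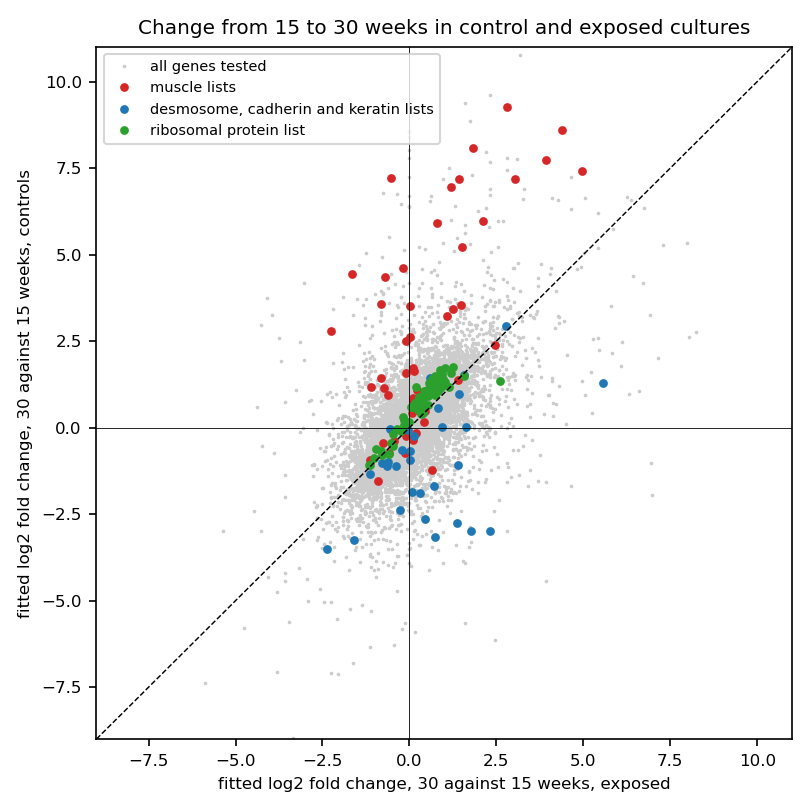
Fitted log2 fold change from 15 to 30 weeks in control cultures (vertical axis, 3 against 2 libraries) against the same change in exposed cultures (horizontal axis, 4 against 2 libraries), 1 point per gene. Grey points are all 16740 genes tested, coloured points are listed groups, and the dashed line marks equal change. Most members of the muscle lists that changed (red) lie above the line. Ribosomal protein genes (green) lie nearer to it, with a median of 0.92 in controls and 0.44 in exposed cultures.

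Genes of skeletal muscle were among the largest rises of the late controls. Of the 12 called genes with the largest rise at 5 CPM or more, 6 are known from muscle: JSRP1, CHRNA1, RAPSN, TNNT2, TNNC1 and SGCA. Of 15 tested members of a list of myogenic regulators, 12 were called higher and 1 lower (median log2FC 1.36), beside 25.6% and 24.6% of all genes. A list of sarcomere and excitation genes had 15 of 24 higher and 2 lower (median 2.82), and a list of acetylcholine receptor genes 6 of 9 higher and 1 lower (median 2.51). The count table held 21, 51 and 10 members of these lists, and the filter on low counts removed the rest. A member could pass by its level in the late controls alone, so these shares and medians lean towards rises. In the exposed libraries the same lists had 1, 3 and 0 members higher and 4, 3 and 0 lower, beside 23.3% and 22.7% of all genes. The difference between the control and the exposed change was called for 7, 8 and 3 members, higher in controls for each. The members were chosen with earlier results of these data known.

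MYOD1, the factor that can by itself turn other cells towards muscle, measured 2.02 and 5.72 CPM at 15 weeks and 106, 65.8 and 84.4 CPM at 30 weeks. All 3 late controls lay above both intermediate ones (log2FC 4.45 ± 0.38, adjusted p = 4.2e-07). It measured 0.346 and 0.42 CPM in the 24-h controls, so it was already higher at 15 weeks, and it ran from 0.313 to 0.761 CPM in the exposed libraries at 30 weeks (control minus exposed change 6.11, adjusted p = 8.3e-06). MYOG, the factor of terminal muscle differentiation, had 0 counts in both intermediate libraries and 2.71, 2.13 and 3.19 CPM in the late ones, at least 29.2-fold higher against a floor of 3 counts per library. It reached 0.105 CPM in 1 exposed 30-week library and was at 0 in the other exposed libraries. MYF5, MYF6 and PAX7, the other myogenic factors, had 0 counts in all 5 control libraries, and the fusion gene MYMK had counts of 2, 2 and 13 in the late ones and 0 in the intermediate ones.

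Partners of MYOD1 rose beside it. MEF2C, a MADS-box factor of muscle genes, measured 0.442 and 1.47 CPM at 15 weeks and 24.1, 27.4 and 20.4 CPM at 30 weeks (log2FC 4.63 ± 0.59, adjusted p = 2.6e-05). SIX4, a homeobox factor of muscle precursors, went from 8.47 and 8.35 to 25.4, 26.5 and 24.1 CPM (log2FC 1.59 ± 0.15, adjusted p = 1.1e-06). EYA1, a coactivator of SIX4, had fallen before it rose: it measured 25.1 and 21.2 CPM at 24 h, 10.3 and 10.3 at 15 weeks and 22, 23.4 and 24 at 30 weeks (log2FC 1.17 ± 0.18, adjusted p = 5.9e-05). The difference from the exposed change was called for EYA1 (2.28) and SIX4 (1.7). MSC, a repressor in the MYOD1 family's network, and PAX3, a factor of muscle precursors, stayed below 4 CPM in every library (log2FC 2.8 ± 0.44, adjusted p = 8.4e-05 and log2FC 3.42 ± 0.84, adjusted p = 0.0039).

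**Figure D2:**
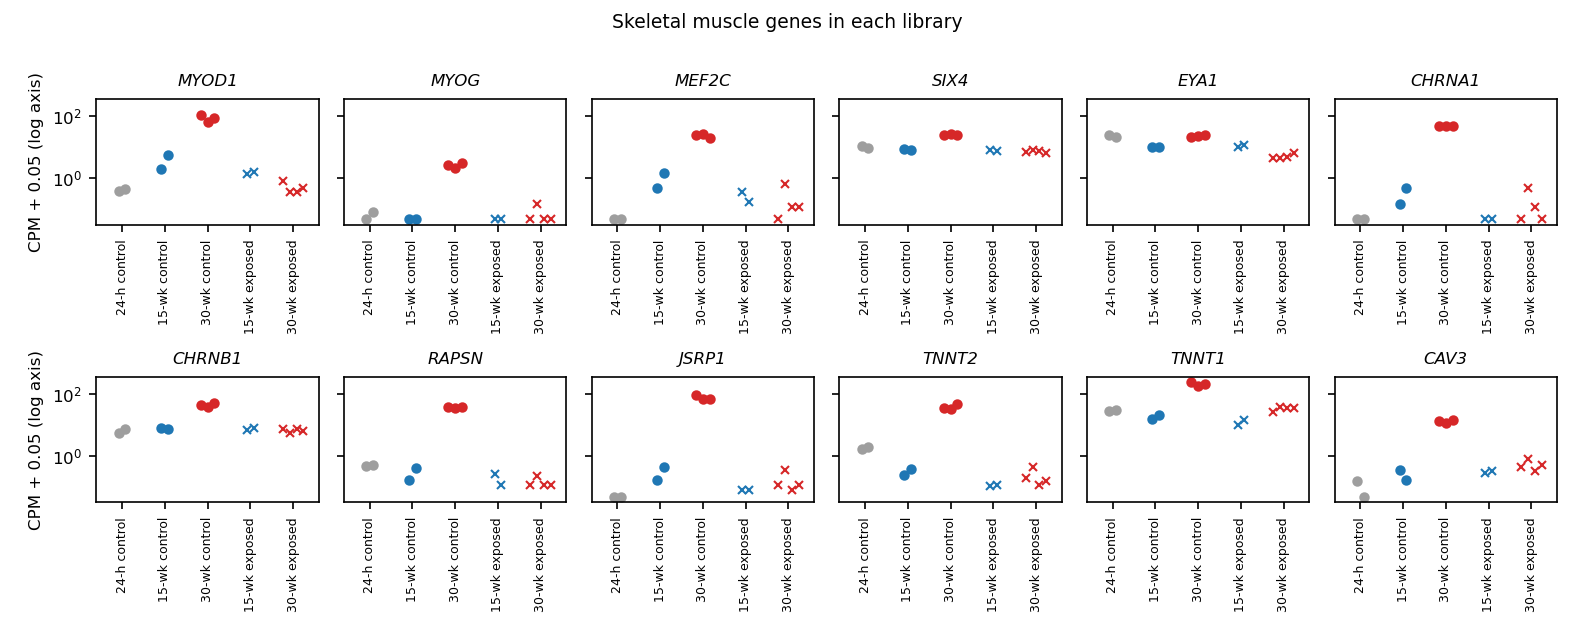
CPM plus 0.05 on a log axis for 12 skeletal muscle genes in the control (dots) and exposed (crosses) libraries at 24 h, 15 weeks and 30 weeks, 1 mark per library. The 3 late control libraries lie above all others shown for MYOD1, MEF2C, CHRNA1, RAPSN, JSRP1 and CAV3.

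Genes of the contractile apparatus and of its calcium release changed by larger factors. JSRP1, a protein of the junction at which muscle calcium is released, measured 0.126 and 0.413 CPM at 15 weeks and 90.5, 69.9 and 67.5 CPM at 30 weeks (log2FC 8.09 ± 0.42, adjusted p = 2.0e-08). TNNT2 and TNNC1, troponin subunits of cardiac and slow muscle, went from 0.19 and 0.324 to 35.1, 32.3 and 47.8 CPM and from 0.158 and 0.265 to 34.1, 29.2 and 30.8 CPM (log2FC 7.19 ± 0.41, adjusted p = 1.1e-08 and log2FC 7.17 ± 0.52, adjusted p = 8.8e-08). For these genes the late libraries lay far above the intermediate ones. TNNC1 also rose in exposed cultures (log2FC 3.04), to 0.487 to 1.58 CPM at 30 weeks. The difference from the exposed change was called for TNNT2 (5.77) and not for JSRP1 (6.27, adjusted p = 0.14) or TNNC1 (4.13, adjusted p = 0.066). TNNT1, the slow skeletal troponin T, was expressed before, at 15.4 and 20.5 CPM, and reached 235, 186 and 202 CPM (log2FC 3.53 ± 0.21, adjusted p = 1.9e-08), against 26.4 to 38.1 CPM in the exposed libraries at 30 weeks. SGCA, of the dystrophin complex, CAV3, the muscle caveolin, and KLHL41, a sarcomere assembly factor, had log2FC of 6.95, 5.92 and 4.35. ACTC1, cardiac actin, measured 0.916 and 0.796 CPM at 15 weeks and 10.7, 9.93 and 10.3 CPM at 30 weeks, and DES, the muscle intermediate filament, went from 0 counts to 1.59, 1.55 and 1.9 CPM, at least 18.3-fold higher. JPH2, which holds the calcium store to the cell membrane, measured 18.8 and 22.2 CPM at 15 weeks and 72.2, 60.3 and 71.7 CPM at 30 weeks (log2FC 1.73 ± 0.16, adjusted p = 8.9e-07). The largest filament genes were not among the rises: TTN, the titin spring, fell (88.3 and 96.8 CPM at 15 weeks and 36.7, 53.2 and 54 CPM at 30 weeks, log2FC -0.95 ± 0.17, adjusted p = 2.5e-04), in exposed libraries as well (-1.13), and NEB, nebulin, measured 6.35 and 8.38 and then 3.05, 6.71 and 6.55 CPM with log2FC -0.43 ± 0.29, adjusted p = 0.24. Of genes too low to be tested, ACTA1, skeletal actin, had 3 and 2 counts at 15 weeks and 0, 4 and 3 at 30 weeks. MYL4 had 7 and 7 and then 11, 4 and 5, and ACTN2 had 0 in all 5 control libraries. Against these MYL1 had 0 counts at 15 weeks and 11, 10 and 8 at 30 weeks, and MYH1 0 and then 3, 10 and 4.

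Of the receptor genes, CHRNA1, the acetylcholine-binding subunit of the muscle receptor, measured 0.0948 and 0.442 CPM at 15 weeks and 48, 48.5 and 46.7 CPM at 30 weeks, and RAPSN, the protein that clusters the receptor, measured 0.126 and 0.354 CPM at 15 weeks and 37.5, 36.2 and 37.5 CPM at 30 weeks. The 3 late libraries differed by less than 2 CPM from each other in each gene and lay above both intermediate ones (log2FC 7.42 ± 0.62, adjusted p = 9.0e-07 and log2FC 7.23 ± 0.36, adjusted p = 2.6e-09). The difference from the exposed change was 7.76 (adjusted p = 1.0e-04) for RAPSN and was not called for CHRNA1 (2.46, adjusted p = 0.97), which several exposed libraries held at 0. CHRNB1, the beta subunit, measured 7.99 and 7.4 CPM at 15 weeks and 43.6, 38.6 and 49.4 CPM at 30 weeks (log2FC 2.51 ± 0.19, adjusted p = 1.3e-07), and its exposed libraries at 30 weeks ran from 5.47 to 7.57 CPM. The delta and gamma subunits and the kinase that organises the contact were lower in level. CHRND held 3 counts in the intermediate libraries together, and its late to intermediate ratio was 40.4 with a counting interval of 13.6 to 198. MUSK went from 0.0948 and 0.295 to 1.85, 1.73 and 3.26 CPM (log2FC 3.51 ± 0.54, adjusted p = 7.4e-05), after 2.77 and 1.64 CPM at 24 h, and CHRNG, the gamma subunit of fetal receptors, had log2FC 1.65 ± 0.37, adjusted p = 0.0015.

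Of the 33 muscle list members called higher, 20 had a promoter in the RefSeq table (GRCh38.p14), and the 250 bases before the start site of 8 of them (40%) held CAGCTG, an E-box of the type MYOD1 can bind, beside 13.8% of all 27305 promoters. The 6-letter word reads alike on both strands, and the core of a MEF2 site was in 1 of the 20, KLHL41, and in 2.42% of all promoters. A second E-box, CAGGTG read on either strand, was in 4 of the 20 and in 17.5% of all. These matches describe letters in a window and not bound sites. The promoters of CHRNA1, at chr2:174764473-174764722 (minus strand), CAV3, at chr3:8733552-8733801 (plus strand), and KLHL41, at chr2:169509452-169509701 (plus strand), are shown because these genes rose and hold the first word, with both E-boxes in capitals:
CHRNA1: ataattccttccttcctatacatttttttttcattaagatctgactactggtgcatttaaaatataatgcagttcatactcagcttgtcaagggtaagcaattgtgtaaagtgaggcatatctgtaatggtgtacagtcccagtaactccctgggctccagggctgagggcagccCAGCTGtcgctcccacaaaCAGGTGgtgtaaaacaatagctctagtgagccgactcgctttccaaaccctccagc
CAV3: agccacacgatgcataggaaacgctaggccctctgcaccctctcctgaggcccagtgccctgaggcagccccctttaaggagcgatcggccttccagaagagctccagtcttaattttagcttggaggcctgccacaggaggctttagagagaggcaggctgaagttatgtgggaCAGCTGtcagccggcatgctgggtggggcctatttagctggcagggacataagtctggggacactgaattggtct
KLHL41: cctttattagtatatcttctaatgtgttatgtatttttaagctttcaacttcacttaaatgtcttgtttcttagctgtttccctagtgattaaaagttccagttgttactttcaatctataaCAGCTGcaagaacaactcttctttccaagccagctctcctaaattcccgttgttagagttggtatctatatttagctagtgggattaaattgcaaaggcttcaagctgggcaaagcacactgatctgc

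Junction genes of the desmosome fell in the late controls in part, and others rose. Of 9 desmosome genes tested, 3 were called higher and 3 lower (median log2FC -0.24), beside 25.6% and 24.6% of all genes. DSG2, the desmosomal cadherin, measured 22.9 and 23 CPM at 15 weeks and 2.54, 2.96 and 2.22 CPM at 30 weeks, so all 3 late libraries lay about an order of magnitude under the intermediate ones (log2FC -3.16 ± 0.19, adjusted p = 1.4e-08). It had been 68.2 and 69.8 CPM at 24 h, and the exposed libraries at 30 weeks ran from 34.9 to 52.4 CPM (difference -3.89, adjusted p = 5.0e-07). DSP, desmoplakin, which ties the desmosome to keratin, measured 26.5 and 24.8 CPM at 15 weeks and 3.83, 5.42 and 5.44 CPM at 30 weeks (log2FC -2.38 ± 0.20, adjusted p = 4.0e-07), after 96.2 and 78.1 CPM at 24 h. PKP3, an arm-repeat plaque protein, went from 21.1 and 19.2 to 10.8, 8.99 and 8.27 CPM (log2FC -1.11 ± 0.14, adjusted p = 1.6e-05). Against these PKP2, PERP and JUP rose (log2FC 1.19, 1.53 and 0.97), and so they did in the exposed libraries (0.64, 1.58 and 1.42). The rise of JUP, plakoglobin, missed the threshold when libraries were scaled by size alone.

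The 250 bases before the start of DSP, at chr6:7541421-7541670 (plus strand), and of DSG2, at chr18:31497927-31498176 (plus strand), each held the CAGGTG word of E-boxes that SNAI2 can bind in 2 places, shown in capitals:
DSP: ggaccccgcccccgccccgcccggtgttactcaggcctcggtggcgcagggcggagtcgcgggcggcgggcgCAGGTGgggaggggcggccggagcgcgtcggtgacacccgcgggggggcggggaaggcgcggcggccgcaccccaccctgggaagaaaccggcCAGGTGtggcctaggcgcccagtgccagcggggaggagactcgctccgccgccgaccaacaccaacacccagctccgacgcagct
DSG2: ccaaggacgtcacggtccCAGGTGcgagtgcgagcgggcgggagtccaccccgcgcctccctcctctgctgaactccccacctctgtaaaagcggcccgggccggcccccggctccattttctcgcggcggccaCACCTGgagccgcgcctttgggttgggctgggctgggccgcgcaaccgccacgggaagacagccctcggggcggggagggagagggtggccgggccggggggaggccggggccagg
Of the 24 junction, keratin and laminin genes called lower, 13 had a promoter in the table, and 5 of these held CAGGTG (38.5%, beside 17.5% of all promoters), while none held CAGCTG. DSP and DSG2 are shown because they fell and hold this word. Here too the matches are letters in a window and not bound sites, and a part of SNAI2 in these falls was not tested.

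More cadherins, tight junction genes and keratins were called lower than higher. Of 11 cadherin and catenin genes 1 was higher and 4 lower (median -1.12), of 18 tight junction genes 4 and 6 (median -0.13), and of 13 keratins 2 and 6 (median -1.0). Over all genes tested 25.6% were higher and 24.6% lower, and the tight junction shares, 22.2% and 33.3%, lay near these. CDH2, the main cadherin of these cells, measured 158 and 154 CPM at 15 weeks and 75.4, 86.1 and 81.4 CPM at 30 weeks (log2FC -0.94 ± 0.12, adjusted p = 1.0e-05), and the exposed libraries at 30 weeks ran from 165 to 194 CPM. F11R, a tight junction adhesion protein, measured 47.9 and 39.5 CPM at 15 weeks and 29.9, 31.4 and 31.8 CPM at 30 weeks (log2FC -0.49 ± 0.13, adjusted p = 0.0051), and differed from the exposed change by -1.39, since the exposed libraries rose to 69.1 to 79.4 CPM. The keratin fall was led by the simple keratins. KRT8, whose values are above, had log2FC -1.86 ± 0.17, adjusted p = 9.4e-07, and KRT18, its partner, measured 306 and 314 CPM at 15 weeks and 219.7, 179 and 184 CPM at 30 weeks (log2FC -0.67 ± 0.15, adjusted p = 0.0017). Both have many pseudogenes that can share reads, so their values are uncertain. KRT7 had already fallen from 24 h, where it measured 1215 and 1414 CPM, to 23.4 and 12.7 CPM at 15 weeks, and fell on to 2.67, 1.88 and 1.25 (log2FC -3.23 ± 0.35, adjusted p = 3.2e-06), and KRT17 and KRT19, keratins of basal and simple cells, were below 4 CPM (log2FC -2.76 ± 0.69, adjusted p = 0.0034 and log2FC -1.69 ± 0.39, adjusted p = 0.0018). The calls of KRT17, KRT19 and F11R were lost without the first 15-week library (log2FC -1.96, -1.12 and -0.35). The difference was called for 4 keratins, each lower in controls.

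Of transcription factors known for mesenchymal change, 2 of 10 were called higher and none lower (median -0.19), beside 25.6% and 24.6% of all genes. The list as a whole did not rise, and the 2 called were SNAI2 and TWIST1. SNAI2 measured 3.73 and 5.66 CPM at 15 weeks and 27.1, 26.9 and 24.4 CPM at 30 weeks, after 14.9 and 16.8 CPM at 24 h, so it had fallen before it rose (log2FC 2.47 ± 0.22, adjusted p = 6.0e-07), and the exposed libraries at 30 weeks stayed at 2.1 to 3.43 CPM. TWIST1 measured 12.8 and 10.2 CPM at 15 weeks and 26.2, 28.3 and 23.4 CPM at 30 weeks (log2FC 1.18 ± 0.16, adjusted p = 2.0e-05). SOX9, a factor of cartilage and airway progenitors, measured 2.53 and 2.92 CPM at 15 weeks and 26.7, 25.2 and 27.5 CPM at 30 weeks (log2FC 3.28 ± 0.22, adjusted p = 5.0e-08), and KLF5, of epithelial proliferation, measured 7.36 and 8.67 CPM at 15 weeks and 24.5, 29.1 and 30.6 CPM at 30 weeks (log2FC 1.81 ± 0.22, adjusted p = 8.0e-06). Both were lower at 15 weeks than at 24 h (16.3 and 13.6 CPM for SOX9). SOX9 and KLF5 belong to a list of epithelial identity genes, of which 6 of 15 were higher and 2 lower (median 0.59, exposed 1.12). Over all genes these shares were 25.6% and 24.6%. The summed list ran from 109 to 115 CPM at 15 weeks and from 206 to 256 CPM at 30 weeks, after 1199 and 1310 CPM at 24 h. PRKCZ, a kinase of cell polarity, measured 12.3 and 12.6 CPM at 15 weeks and 0.989, 1.34 and 1.18 CPM at 30 weeks against 10.5 to 13.8 CPM in the exposed 30-week libraries (log2FC -3.4 ± 0.19, adjusted p = 9.3e-09), and FAT3, a giant cadherin, measured 109.7 and 113 CPM at 15 weeks and 7.01, 9.86 and 10.5 CPM at 30 weeks (log2FC -3.61 ± 0.16, adjusted p = 6.8e-10).

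**Figure D3:**
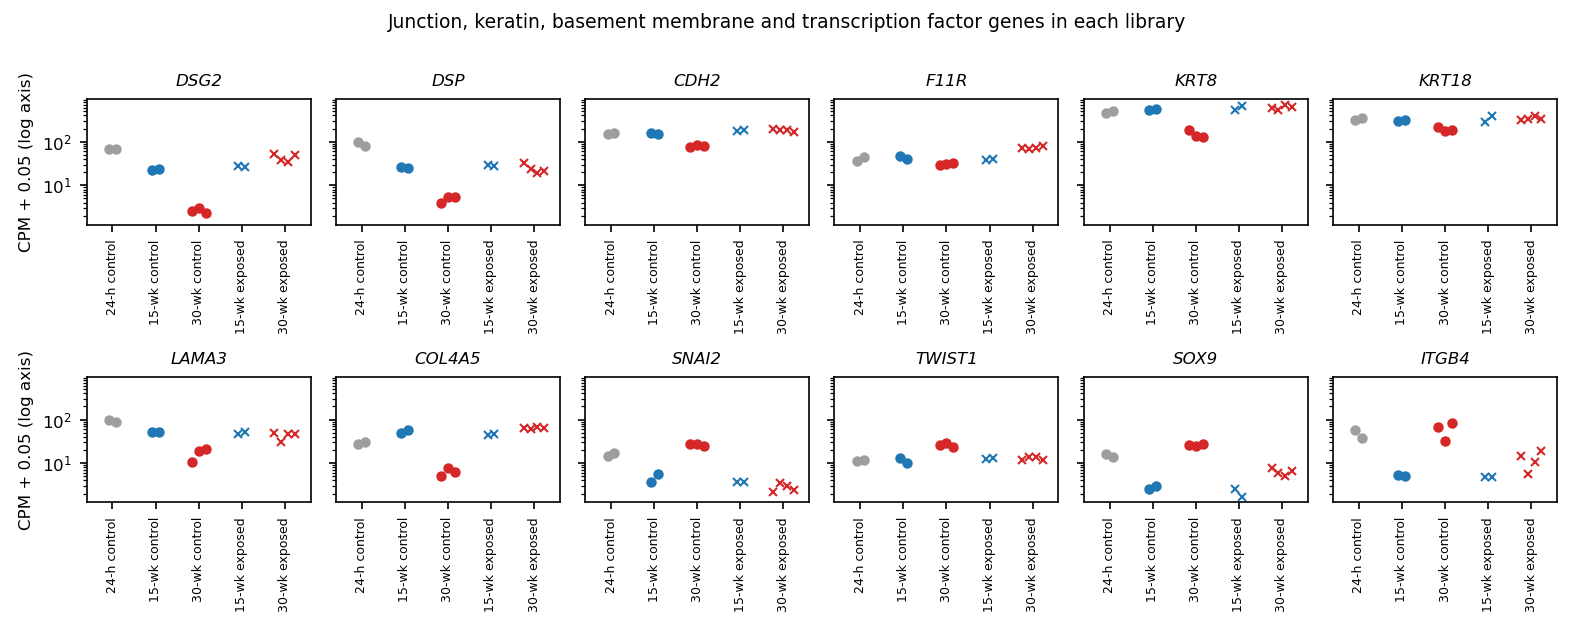
CPM plus 0.05 on a log axis for 12 junction, keratin, basement membrane and transcription factor genes, with control (dots) and exposed (crosses) libraries, 1 mark per library. The late controls stand below the other libraries for DSG2, DSP, KRT8, LAMA3 and COL4A5, and above the exposed 30-week libraries for SNAI2, TWIST1 and SOX9.

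Laminins, the main proteins of the basement membrane, fell where called. None of 10 laminins was called higher and 5 were lower (median -0.57), and the difference from the exposed change was called for 4 of them, each lower in controls. LAMA3, the alpha chain of the epithelial laminin, measured 52.9 and 51.6 CPM at 15 weeks and 10.4, 18.5 and 20.6 CPM at 30 weeks (log2FC -1.66 ± 0.23, adjusted p = 2.5e-05), while LAMB3, a chain of the same laminin, had log2FC -0.05 ± 0.24, adjusted p = 0.87. LAMA4 went from 4.86 and 3.95 to 0.516, 0.686 and 0.286 CPM (log2FC -3.14 ± 0.25, adjusted p = 2.3e-07). COL4A5 and COL4A6, neighbouring type IV collagen genes on the X chromosome, measured 49 and 56.7 CPM at 15 weeks and 4.99, 7.54 and 6.26 CPM at 30 weeks and 10.6 and 12 CPM at 15 weeks and 0.43, 1.01 and 0.644 CPM at 30 weeks, respectively. Both fell, with all 3 late libraries under both intermediate ones (log2FC -3.07 ± 0.15, adjusted p = 2.4e-09 and log2FC -4.0 ± 0.24, adjusted p = 2.0e-08). The exposed libraries at 30 weeks ran from 60.8 to 65.8 and from 7.93 to 10.9 CPM, and the difference was -3.56 and -4.05.

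Over 33 collagen genes 7 were called higher and 16 lower (median -0.28), and over 19 matricellular genes 5 and 8. Over all genes tested 25.6% were higher and 24.6% lower. FN1, fibronectin, had come down from 2490.2 and 2149 CPM at 24 h and measured 212 and 211 CPM at 15 weeks and 93, 119 and 132 CPM at 30 weeks (log2FC -0.88 ± 0.21, adjusted p = 0.0026), whereas the exposed libraries rose to 405 to 725 CPM at 30 weeks. TNC, tenascin C, measured 166 and 190.4 CPM at 15 weeks and 68.2, 57.9 and 84 CPM at 30 weeks (log2FC -1.35 ± 0.21, adjusted p = 6.6e-05). Rises were found in COL1A1, of fibrillar collagen I, which measured 11.2 and 8.76 CPM at 15 weeks and 89, 21.5 and 55.3 CPM at 30 weeks and varied most between the late libraries (log2FC 2.47 ± 0.47, adjusted p = 4.5e-04), in COL24A1 (0.758 and 1.36 CPM at 15 weeks and 10.3, 9.24 and 9.45 CPM at 30 weeks, log2FC 3.18 ± 0.36, adjusted p = 4.6e-06) and in COL25A1, a membrane collagen of motor innervation (0 and 0.206 CPM at 15 weeks and 4.04, 6.28 and 5.87 CPM at 30 weeks, log2FC 5.61 ± 0.64, adjusted p = 1.5e-05). VCAN, the proteoglycan versican, measured 6.25 and 22.5 CPM at 15 weeks and 77, 89.2 and 96.3 CPM at 30 weeks (log2FC 2.6 ± 0.42, adjusted p = 1.1e-04), while THBS2, a thrombospondin, rose in the control and in the exposed cultures, in controls from 219.8 and 237 to 499, 478 and 556 CPM (log2FC 1.16 ± 0.16, adjusted p = 2.6e-05). LOX, the collagen cross-linking enzyme, did the same (log2FC 1.58 ± 0.15, adjusted p = 1.3e-06). FAM20C, the kinase of secreted proteins, measured 31 and 30.1 CPM at 15 weeks and 2.54, 1.81 and 2.0 CPM at 30 weeks (log2FC -3.86 ± 0.26, adjusted p = 4.8e-08).

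Integrins, the cell's matrix receptors, were called at shares near those of all genes. Of 26, 5 were higher (19.2%) and 7 lower (26.9%), beside 25.6% and 24.6% of all genes. ITGB4, the laminin receptor of hemidesmosomes, measured 5.21 and 4.93 CPM at 15 weeks and 67.3, 32.1 and 84.7 CPM at 30 weeks, after 58.8 and 37.9 CPM at 24 h (log2FC 3.6 ± 0.46, adjusted p = 1.5e-05), and ITGA7, the laminin receptor of muscle, measured 15.3 and 19.3 CPM at 15 weeks and 131, 101 and 147 CPM at 30 weeks (log2FC 2.86 ± 0.18, adjusted p = 2.1e-08). ITGA2, a collagen receptor, measured 25.5 and 28.8 CPM at 15 weeks and 3.18, 4.12 and 3.29 CPM at 30 weeks (log2FC -2.94 ± 0.22, adjusted p = 1.5e-07), and ITGB8 measured 17.5 and 16.7 CPM at 15 weeks and 2.84, 3.39 and 2.72 CPM at 30 weeks (log2FC -2.51 ± 0.29, adjusted p = 5.3e-06).

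Of 23 HOX genes tested, which set position along the body axis, 11 were called higher and none lower (median 0.92), and in the exposed libraries 13 were called higher (median 1.27). HOXB6 measured 1.2 and 1.33 CPM at 15 weeks and 5.5, 5.31 and 4.55 CPM at 30 weeks (log2FC 2.01 ± 0.22, adjusted p = 3.4e-06), HOXB7 6.44 and 5.81 CPM at 15 weeks and 22.8, 17.8 and 17.6 CPM at 30 weeks (log2FC 1.66 ± 0.25, adjusted p = 5.8e-05) and HOXB4 5.12 and 4.63 CPM at 15 weeks and 10.8, 10.4 and 8.7 CPM at 30 weeks (log2FC 1.03 ± 0.17, adjusted p = 1.3e-04). H19, an imprinted RNA that muscle expresses in quantity, measured 0.284 and 0.767 CPM at 15 weeks and 88.4, 57.3 and 109.6 CPM at 30 weeks (log2FC 7.31 ± 0.61, adjusted p = 3.2e-07), against 0.254 to 1.58 CPM in the exposed libraries at 30 weeks. MEST measured 141 and 130.0 CPM at 15 weeks and 294, 298 and 233 CPM at 30 weeks (log2FC 1.02 ± 0.15, adjusted p = 5.5e-05) and PEG10 29.9 and 36.5 CPM at 15 weeks and 77.2, 78.3 and 87.9 CPM at 30 weeks (log2FC 1.29 ± 0.22, adjusted p = 2.0e-04), both after higher levels at 24 h (376 and 436 and 330.0 and 252 CPM). EBF3, a transcription factor of muscle and nerve, had 0 counts in both intermediate libraries and 10.9, 5.78 and 6.05 CPM in the late ones, at least 82.8-fold higher, and TSHZ3, a zinc finger factor of smooth muscle, went from 0 and 0.147 to 17.8, 15.9 and 19.7 CPM (log2FC 7.79 ± 0.58, adjusted p = 1.9e-07). IRX1 and IRX2, Iroquois genes of lung and airway patterning, measured 9.63 and 7.85 CPM at 15 weeks and 0.43, 0.542 and 0.608 CPM at 30 weeks and 11.2 and 9.26 CPM at 15 weeks and 0.172, 0.542 and 0.0716 CPM at 30 weeks, respectively (log2FC -4.03 ± 0.28, adjusted p = 5.4e-08 and log2FC -5.24 ± 0.60, adjusted p = 5.3e-06), and the exposed libraries at 30 weeks were at 3.08 to 4.89 CPM for IRX1 and 0.688 to 4.45 CPM for IRX2.

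Among the remaining largest changes, LRRN4CL, a leucine-rich membrane protein, measured 0.158 and 0.0885 CPM at 15 weeks and 23.3, 22.8 and 22.5 CPM at 30 weeks (log2FC 7.5 ± 0.31, adjusted p = 3.4e-10), FLT4, the receptor for lymphatic growth factor, held 3 counts in the intermediate libraries together and had a ratio of 272 with a counting interval of 92.8 to 1321, and PDE10A, a cyclic nucleotide phosphodiesterase, had a ratio of 131 with an interval of 44.6 to 638. Genes that lost expression included MLPH, of pigment granule transport (30 and 35.6 CPM at 15 weeks and 1.16, 0.469 and 1.18 CPM at 30 weeks, log2FC -5.13 ± 0.28, adjusted p = 5.8e-09), SCG2, a secretory granule protein (20.9 and 27.7 CPM at 15 weeks and 0.473, 1.08 and 1.11 CPM at 30 weeks, log2FC -4.74 ± 0.35, adjusted p = 9.8e-08), and HR, a histone demethylase (55.8 and 55.9 CPM at 15 weeks and 2.24, 1.88 and 3.94 CPM at 30 weeks, log2FC -4.37 ± 0.32, adjusted p = 8.8e-08). RGS4, a brake on G protein signalling, went from 465 and 546 to 37.4, 33.1 and 21.2 CPM (log2FC -4.05 ± 0.32, adjusted p = 2.0e-07) and also fell in exposed libraries (39.6 to 97.6 CPM at 30 weeks), as did PLCL1, a phospholipase-like protein (log2FC -5.8 ± 0.54, adjusted p = 9.4e-07). SCG2 and HR fell in the exposed libraries too (log2FC -3.81 and -2.96), where MLPH fell by less (-1.36). The difference from the exposed change was called for MLPH (-3.77) and not for SCG2, HR, RGS4 or PLCL1. SLIT2, a guidance ligand, measured 10.4 and 10.9 CPM at 15 weeks and 0.645, 0.903 and 0.895 CPM at 30 weeks (log2FC -3.7 ± 0.25, adjusted p = 4.6e-08) against 6.44 to 9.67 CPM in the exposed ones, and ALDH1A3, a retinoic acid synthase, measured 31.9 and 32.9 CPM at 15 weeks and 2.88, 2.64 and 2.18 CPM at 30 weeks (log2FC -3.66 ± 0.14, adjusted p = 2.5e-10), after 291 and 328 CPM at 24 h.

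Insulin-like growth factor (IGF) binding proteins moved in both directions. Of 8 IGF system genes tested, 4 were higher and 2 lower (median 0.79), and the difference from the exposed change was called for 5. IGFBP5, which muscle makes, measured 0.569 and 0.649 CPM at 15 weeks and 6.92, 6.93 and 11.5 CPM at 30 weeks (log2FC 3.79 ± 0.51, adjusted p = 2.2e-05), IGFBP3 67.8 and 87.8 CPM at 15 weeks and 177, 187 and 140.3 CPM at 30 weeks (log2FC 1.11 ± 0.18, adjusted p = 1.5e-04) and IGFBP7 83.1 and 73.7 CPM at 15 weeks and 19.2, 25.6 and 20.6 CPM at 30 weeks (log2FC -1.85 ± 0.14, adjusted p = 1.9e-07). The exposed libraries rose to 166 to 193 CPM of IGFBP7, the opposite direction (difference -3.04, adjusted p = 6.1e-07). Of 26 TGF-beta and BMP genes 5 were higher (19.2%) and 7 lower (26.9%), with a median of -0.11, near the 25.6% and 24.6% of all genes. TGFBR1, the type I receptor, measured 93.7 and 101 CPM at 15 weeks and 217, 243 and 224 CPM at 30 weeks (log2FC 1.23 ± 0.14, adjusted p = 6.3e-06), SMAD6, an inhibitor of the pathway, 27.4 and 26.9 CPM at 15 weeks and 4.3, 4.77 and 4.65 CPM at 30 weeks (log2FC -2.57 ± 0.14, adjusted p = 6.8e-09), and ID2, a BMP target that inhibits E-box factors, 54.7 and 59.6 CPM at 15 weeks and 277, 292 and 182 CPM at 30 weeks (log2FC 2.13 ± 0.35, adjusted p = 1.2e-04). CHRDL1, a secreted BMP antagonist, measured 7.3 and 11 CPM at 15 weeks and 0.43, 1.08 and 1.18 CPM at 30 weeks (log2FC -3.32 ± 0.44, adjusted p = 1.8e-05).

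Of 18 WNT genes 5 were higher (27.8%) and 2 lower (11.1%), with a median of 0.05, beside 25.6% and 24.6% of all genes. LEF1, the nuclear partner of beta-catenin, had 0 counts at 15 weeks and 1.03, 2.64 and 2.36 CPM at 30 weeks, at least 21.9-fold higher, and DAAM2, of WNT receptor complexes, measured 2.24 and 4.42 CPM at 15 weeks and 59.8, 45.1 and 66.6 CPM at 30 weeks (log2FC 4.09 ± 0.26, adjusted p = 2.3e-08). WNT5B, a ligand, measured 29.6 and 35.5 CPM at 15 weeks and 9.12, 7.94 and 5.65 CPM at 30 weeks (log2FC -2.11 ± 0.24, adjusted p = 5.1e-06), and the exposed libraries at 30 weeks ran from 28.2 to 54.2 CPM. LBH, a WNT target in limb and heart, measured 9.35 and 11.8 CPM at 15 weeks and 82.9, 78.4 and 68.2 CPM at 30 weeks (log2FC 2.85 ± 0.17, adjusted p = 1.6e-08), with 11.2 to 12.8 CPM in the exposed 30-week libraries. NFIA, of the nuclear factor I family, measured 8.31 and 7.61 CPM at 15 weeks and 0.731, 0.686 and 1.36 CPM at 30 weeks (log2FC -3.09 ± 0.28, adjusted p = 6.5e-07).

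Of 32 interferon genes 15 were higher and 6 lower (median 0.61, exposed 0.81), of 15 MHC class I genes 9 and 2 (median 0.71, exposed 0.67), of 18 inflammation genes 8 and 0, and of 13 AP-1 and immediate early genes 9 and 0. HLA-B, a presenting molecule, measured 418 and 419.8 CPM at 15 weeks and 1007, 1003 and 1074 CPM at 30 weeks (log2FC 1.29 ± 0.15, adjusted p = 5.5e-06). IFI6, an interferon-induced protein, measured 33.3 and 26 CPM at 15 weeks and 79.3, 69.5 and 59.5 CPM at 30 weeks (log2FC 1.23 ± 0.15, adjusted p = 1.0e-05), and LY6E, another, fell instead (52.1 and 49 CPM at 15 weeks and 18.2, 14.3 and 13.3 CPM at 30 weeks, log2FC -1.73 ± 0.14, adjusted p = 2.2e-07), while its exposed libraries rose to 121 to 137 CPM. IL32, a cytokine, measured 0.853 and 0.737 CPM at 15 weeks and 24.3, 16.6 and 17.8 CPM at 30 weeks (log2FC 4.61 ± 0.25, adjusted p = 6.8e-09). EGR1 and FOS, immediate early factors, had log2FC 3.18 ± 0.28, adjusted p = 4.8e-07 and log2FC 2.01 ± 0.44, adjusted p = 0.0014. Of 6 metallothioneins 5 were higher in controls, 2 of them with an offset for GC content and length, and the difference was called for 3. MT1E measured 35.2 and 41.7 CPM at 15 weeks and 213, 134 and 93.5 CPM at 30 weeks (log2FC 1.93 ± 0.28, adjusted p = 4.3e-05). These copies are nearly identical and can share reads, so their split is uncertain.

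The sterol pathway fell. Of 22 genes 2 were higher and 12 lower (median -0.56), and the difference from the exposed change was called for 8, each lower in controls. HMGCS1, a synthase early in the pathway, measured 233 and 226 CPM at 15 weeks and 63, 64.7 and 71.4 CPM at 30 weeks (log2FC -1.79 ± 0.13, adjusted p = 1.3e-07). SQLE, an epoxidase, measured 197 and 175 CPM at 15 weeks and 69.9, 82.1 and 70.5 CPM at 30 weeks (log2FC -1.33 ± 0.12, adjusted p = 9.0e-07), and STARD4, which carries cholesterol, 143 and 121 CPM at 15 weeks and 27.2, 38 and 31.4 CPM at 30 weeks (log2FC -2.04 ± 0.16, adjusted p = 2.0e-07).

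Genes of mitosis fell in the controls and in the exposed libraries alike. Of 26, 5 were higher and 17 lower (median -0.86, exposed -0.65, with no difference called). TOP2A, the DNA topoisomerase of dividing cells, measured 1220.0 and 1071 CPM at 15 weeks and 316, 423 and 395 CPM at 30 weeks (log2FC -1.6 ± 0.19, adjusted p = 7.0e-06), KIF11, the spindle motor, 234 and 220.3 CPM at 15 weeks and 59.5, 73.5 and 83.4 CPM at 30 weeks (log2FC -1.65 ± 0.15, adjusted p = 8.4e-07), and CENPF, a kinetochore protein, 653 and 627 CPM at 15 weeks and 118, 210.1 and 214 CPM at 30 weeks (log2FC -1.82 ± 0.23, adjusted p = 1.1e-05). MKI67, the proliferation marker, measured 275 and 311 CPM at 15 weeks and 169.6, 199.6 and 277 CPM at 30 weeks, with overlapping groups (log2FC -0.44 ± 0.25, adjusted p = 0.15). Of 35 replication genes 9 were higher (25.7%) and 13 lower (37.1%), with a median of 0.02, beside 25.6% and 24.6% of all genes. CDKN1A, an inhibitor of cell cycle kinases, measured 31.8 and 26.4 CPM at 15 weeks and 131, 115 and 111 CPM at 30 weeks (log2FC 2.03 ± 0.17, adjusted p = 2.7e-07) and CDK4 191 and 186 CPM at 15 weeks and 477, 412 and 403 CPM at 30 weeks (log2FC 1.19 ± 0.13, adjusted p = 3.2e-06). CCND1, the cyclin D1 partner of CDK4, measured 19.8 and 24.5 CPM at 15 weeks and 76.3, 61.8 and 51.1 CPM at 30 weeks (log2FC 1.51 ± 0.32, adjusted p = 0.0011).

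The 6 small noncoding RNAs of the count table took 11.4 and 11.3% of counts in the 15-week controls and 31, 22.3 and 26.8% at 30 weeks, against 17 to 21.5% in the exposed ones. The 65 tested histone genes had 61 called higher and 0 lower (median 1.62, exposed 1.03), 78 ribosomal protein genes 49 and 5 (median 0.92, exposed 0.44) and 74 oxidative phosphorylation genes 52 and 4 (median 1.0, exposed 0.65). The difference from the exposed change was called for 1 histone gene and for 0 of the other 2 lists in edgeR's test. H1-2, a linker histone, measured 839 and 791 CPM at 15 weeks and 3268, 2335 and 1935 CPM at 30 weeks (log2FC 1.62 ± 0.22, adjusted p = 2.8e-05), H2AC6, a core histone, had log2FC 1.91 ± 0.24, adjusted p = 1.4e-05, and COX7C and NDUFA1, respiratory chain subunits, log2FC 1.59 ± 0.27, adjusted p = 1.6e-04 and log2FC 1.35 ± 0.23, adjusted p = 2.1e-04. Many ribosomal protein genes have processed pseudogenes that can share reads. The summed histone genes measured 72628, 49266 and 40431 CPM and the summed ribosomal protein genes 63995, 49336 and 36617 CPM in the 3 late controls, whose small RNA shares are given above in the same order. The part of the small RNA share in these rises was not tested.

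Change also followed transcript length and GC content over the 15887 genes (94.9%) with a canonical transcript. Over 5 equal bins from short to long transcripts the median log2FC ran 0.50, 0.11, -0.03, -0.16 and -0.28, and over 5 bins from low to high GC content -0.52, -0.40, 0.08, 0.43 and 0.35. The exposed libraries gave close to the same medians by GC content (-0.57 in the lowest bin and 0.33 in the highest). An offset for both properties, added after the data were seen, left 8101 genes called, of which 5940 were among the 8419, and turned the direction of 614. Under it the 3 muscle lists had medians of 1.63, 2.31 and 2.24, the histone list 0.76, the ribosomal protein list 0.51 and the mitosis list -0.48.

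**Figure D4:**
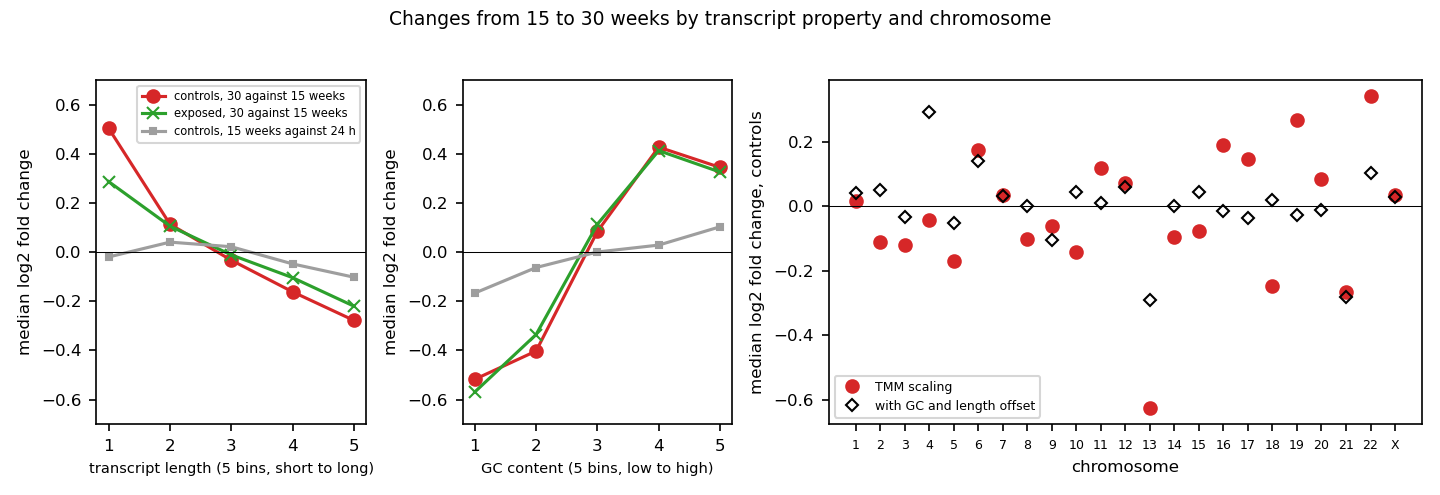
Median log2 fold change by 5 bins of transcript length (left) and GC content (middle) for controls from 15 to 30 weeks, exposed cultures from 15 to 30 weeks and controls from 24 h to 15 weeks, and by chromosome for controls (right) under TMM scaling and with an offset for GC content and length. Chromosome 13 has the lowest median under both, -0.63 and -0.29.

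Chromosome 13 had 30 of 308 genes called higher and 155 lower (median -0.63, exposed -0.42), at -0.72, -0.49 and -0.63 in the 3 late libraries taken singly, and -0.29 with the offset. Chromosome 21 was at -0.27, with 0.05 in the exposed libraries and -0.28 under the offset, and 25 of its 179 genes had a called difference. Chromosome 22 was at 0.34 (exposed 0.28, offset 0.10).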

How the data were processed

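Libraries were prepared with a stranded total RNA kit after ribosomal RNA removal. After read filtering in Rfastp, the authors aligned the reads to GRCh38 and obtained gene counts through Rsubread, and the submitters' processing notes name bcl2fastq, featureCounts and hg38. The deposited values are raw counts for 28395 genes, with no normalization. The strand setting, the handling of reads with several hits and tool versions are not given in the sources used here, so genes with near-identical copies and antisense partners can share reads.

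Counts were fitted in R 4.3.3 with edgeR 4.0.16 (quasi-likelihood, all 15 libraries, 1 mean for each of 6 conditions, filterByExpr, TMM), with Benjamini-Hochberg adjustment over all genes tested and a threshold of 0.05. Batch is one-to-one with 30 weeks and could not enter the fit. The contrast of interest was 30-week minus 15-week controls, and beside it the same change in exposed cells, the difference of both changes, and 15-week minus 24-h controls. The last shares the 15-week controls, so its values only stand side by side. The procedure was tested on simulated data with 200 changed genes before use. Shares of counts have Wilson intervals of 95% that cover counting error only. Depths are in the report, and the floor for a library at 0 was 3 counts.

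Genes were named by rule: the 12 called genes with the largest log2FC in each direction at 5 CPM or more in the higher group and no overlap, the 10 such genes with the smallest p for the difference from exposed cells, and members of 44 gene lists, which are described by counts and medians. A few of these are not reported here. The members and lists were chosen with earlier results of these data known. Alternatives used DESeq2 1.42.0, limma 3.58.1 (voom) and sva 3.50.0, other scalings, filters, depths and sample sets, the replicate number as a block, and each control library left out. The offset for GC content and transcript length (GENCODE canonical transcripts) was added after the data were seen. Promoter sequences are RefSeq's, GRCh38.p14.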

Additional observations from a re-analysis of the deposited data

Results flagged for a closer look

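The change from 15 to 30 weeks differed between control and exposed cultures for 794 genes by the test of that difference in edgeR. Among the muscle genes, RAPSN had a control minus exposed log2 change of 7.76 and MYOD1 of 6.11. DAAM2 and LBH also rose more in controls, by 4.28 and 2.75. On the other side COL4A6 had -4.05, DSG2 -3.89, PRKCZ -3.67, COL4A5 -3.56, IGFBP7 -3.04, LY6E -2.83, FAT3 -2.70 and ALDH1A3 -2.54. Both arms span the same batches, and each group is 2 to 4 libraries.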

How the results depend on the processing

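The count of genes called between 15 and 30 weeks was 8419, and lay between 7233 (limma-voom with 2 surrogate variables) and 8739 (the 7 control samples alone) under the other tools, scalings, filters, sample sets and depths, apart from 9553 without the second exposed 30-week library, 6355 at an adjusted p under 0.01, 3994 with a 2-fold minimum, and 6332 to 8244 when single control libraries were left out. Leaving out a 15-week library leaves 1 sample, assumed to vary like the other groups. With the replicate number as a replicate block, 7866 genes were called. Same-numbered libraries did not deviate together (correlations 0.04 and -0.05), so the numbers are only names. The 794 genes with a different change in exposed cells became 2245 with surrogate variables, 403 at an adjusted p under 0.01, 1227 with the GC and length offset and 427 to 1519 when single libraries were left out (427 and 483 without the first and second 15-week control, 1519 without the second exposed 30-week library). The exposed change gave 7697 calls and 2643 with a 2-fold minimum. The 15-week against 24-h comparison gave 4174 calls (24.9%), 6549 with surrogate variables, 2472 at an adjusted p under 0.01, 2168 with a 2-fold minimum and 2462 to 5572 when single libraries were left out. The causes were not tested. No named gene's log2FC from 15 to 30 weeks changed sign in an alternative run where the gene was called in that run or in the main fit. Sign changes of genes called in neither were not counted. Of 63 differences from the exposed change that were called for named genes, 61 of 1117 alternative values missed the threshold.

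With 2 against 3 libraries, an exact permutation test cannot go below p = 0.10, so all calls rest on the spread shared across 15 libraries. Values under 1 CPM rest on few counts. Time and batch cannot be told apart.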

Other observations

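Other gene lists had these counts called higher and lower in the late controls, beside 25.6% and 24.6% of all genes. Some lay near these shares, such as NRF2 targets (28% and 24%) and ER stress and heat shock genes (27.3% each). Glycolysis and hypoxia genes had 13 and 4 of 27, regulators of G1 8 and 2 of 17, imprinted genes 5 and 2 of 13, epithelial identity genes 6 and 2 of 15, smooth muscle genes 5 and 2 of 14, elastic fibre genes 5 and 2 of 20, EGFR ligands 2 and 1 of 10, NRF2 targets 7 and 6 of 25, ER stress and heat shock genes 6 and 6 of 22, aryl hydrocarbon receptor and xenobiotic genes 2 and 5 of 10, a list of nuclear factor I and AUTS2 genes 2 and 2 of 5, immune markers 1 and 1 of 4 and neural markers 0 and 1 of 5. MT-RNR2, the mitochondrial ribosomal RNA, measured 5.72 and 4.96 CPM at 15 weeks and 698, 787 and 135 CPM at 30 weeks, and from 48.3 to 1003 CPM in the exposed libraries at 30 weeks.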
